A study of Mus musculus with 4 samples.

Results

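The genes described here are 45 genes of DNA replication, from the licensing of origins to the supply of nucleotides, in RNA-seq of mouse hearts at postnatal day 7 (P7). They were taken by symbol from a table of 24454 genes, and all 45 passed the filter on low counts that left 14266 genes to test. The study asked what an excess of *miR-128* does to the heart, and 2 libraries of miR-128OE hearts (WH9 and WH10) were compared with 2 of Ctrl hearts (WH7 and WH8). The miR-128OE mice carried *α-MHC*-tTA together with *miR-128*TetRE, a Tet-off pair in which the *α-MHC* promoter drives the tTA activator in cardiomyocytes (CMs) and a *miR-128* cassette knocked in at Rosa26 answers to it once doxycycline (Dox) is gone. Ctrl mice carried *miR-128*TetRE alone, so both groups share the knockin and only miR-128OE mice hold tTA. All mice were on a C57BL/6 background, and the labels give neither the Dox schedule of these hearts nor whether the libraries of a group came from separate animals. The p-values therefore measure the spread between these libraries, which may be technical.

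Replication begins with licensing, in which the origin recognition complex (ORC), CDC6 and CDT1 load the MCM2 to MCM7 ring onto DNA as an inactive helicase, while geminin holds CDT1 in check. In S phase, CDC45 and the GINS complex join the ring and MCM10 helps to start it. Primase with polymerase α then lays primers, polymerases ε and δ copy the strands on the PCNA clamp that RFC loads, and FEN1 and LIG1 finish the lagging strand. CMs of the mouse leave the cell cycle in early postnatal life, and many of these transcripts, though not all, are more abundant in cells that replicate DNA.

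The mature *miR-128-3p*, shown because the mice were made to express it, has this sequence in RefSeq (GRCm38.p6), with the seed (bases 2 to 8) in capitals. It is encoded at chr1:128202404-128202424 (+) and chr9:112118644-112118664 (-).
miR-128-3p: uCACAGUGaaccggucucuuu
Each gene's longest 3′UTR in GENCODE M21 (GRCm38) was searched for CACTGTG and ACTGTGA, the 7-base complements of the seed. At least 1 was present in 12 of the 45 genes (26.7%) and in 4175 of the 13463 tested genes with a 3′UTR (31.0%). The members' 3′UTRs were shorter, with a median of 526 bases against 1199. Only *Mcm6*, *Orc5*, *Rfc2* and *Dut* held the full 8-base form CACTGTGA, which is in capitals below, at chr1:128332925-128332932 (-), chr5:22487140-22487147 (-), chr5:134601104-134601111 (+) and chr2:125257565-125257572 (+) in that order.
Mcm6: acattgtgtctCACTGTGAagcccacactg
Orc5: agccatatggaCACTGTGAcaatgactaag
Rfc2: ggcaggaggatCACTGTGAgttcagggcca
Dut: ctgtaagtctgCACTGTGAgcatggcattg
*Mcm6*, *Orc5* and *Rfc2* were lower in miR-128OE hearts and *Dut* was not. The *Rfc2* match lies 3145 bases into a 3′UTR of 3846 bases, beyond the end of the gene in RefSeq. *Mcm10*, *Mcm4*, *Rfc4* and *Rrm2* held ACTGTGA, and *Cdc6*, *Fen1*, *Rfc5* and *Rpa1* held CACTGTG. The *Rfc5* and *Rpa1* matches also lie beyond the end of the gene in RefSeq. Of these 12 genes, 4 were lower, against 17 of the 33 with no match and 15.0% of all genes tested. Over all tested genes with a match, the median log2 fold change was -0.01. A match is a description of letters, not a site.

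Promoters are shown because genes of this kind are textbook targets of E2F factors. RefSeq (GRCm38.p6) promoters were held for 37 of the 45 genes, and the 250 bases before each start were searched on both strands for TTTGGCGC, TTTCCCGC, TTTGCCGC, TTTCGCGC and TTTGGCGG, forms of the E2F motif. A match stood in 9 of the 37 (24.3%), in 4.52% of the 11250 tested genes with a promoter and in 2.63% of all 27025 promoter genes. The 9 were *Mcm5*, *Mcm6*, *Mcm7*, *Gins3*, *Orc1*, *Orc3*, *Cdc6*, *Rfc3* and *Rpa1*. Stretches from 5 of them follow, with matches in capitals and overlapping matches joined, at chr1:128359725-128359824 (-), chr8:75109336-75109387 (+), chr5:138172021-138172068 (-), chr11:98907993-98908040 (+) and chr4:108579407-108579453 (+) in that order.
Mcm6: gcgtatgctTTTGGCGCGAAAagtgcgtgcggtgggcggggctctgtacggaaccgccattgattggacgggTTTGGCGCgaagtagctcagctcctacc
Mcm5: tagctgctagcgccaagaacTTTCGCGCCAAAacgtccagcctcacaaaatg
Mcm7: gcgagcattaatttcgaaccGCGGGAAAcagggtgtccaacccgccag
Cdc6: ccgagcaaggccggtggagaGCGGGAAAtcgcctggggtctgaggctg
Orc1: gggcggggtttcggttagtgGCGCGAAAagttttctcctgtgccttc
The *Mcm7*, *Cdc6* and *Orc1* stretches lie inside the RefSeq span of their genes, before a start within that span. Matches stood in lower genes and in others. Among the 18 lower genes with a promoter, 4 held one (22.2%), and among the 19 others, 5 did (26.3%). The median log2 fold change was -0.42 over the 9 genes with a match and -0.38 over the 28 without. The CCAAT box, searched as CCAAT on both strands, stood in 22 of the 37 (59.5%), in 40.1% of the tested genes with a promoter and in 37.5% of all promoters. The CHR letters TTTGAA or TTCGAA stood in 7 (18.9%), against 14.5% of the tested genes and 19.6% of all.

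Library totals ran from 8096870 to 14359838 counts, and the lowest count of a gene called lower was 59. Levels below are normalized counts, which are the counts scaled to one library size with TMM factors, and 3 counts corresponded to 2.52 to 4.24 of them. SE denotes the standard error of a log2 fold change, which is always miR-128OE over Ctrl, and pairs of values are in the order WH7 and WH8 or WH9 and WH10. The groups also differ in sex as read from *Xist* (14543 and 11339 counts in Ctrl, 94 and 132 in miR-128OE), so sex and genotype cannot be told apart. None of the 45 genes lies on X or Y.

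The replication genes were lower in miR-128OE hearts in part. At an adjusted p under 0.05 (edgeR's quasi-likelihood test, adjusted over all genes tested by Benjamini and Hochberg), 21 of the 45 (46.7%) were lower, where 15.0% of all genes tested were. None was higher by edgeR or by DESeq2, where 16.5% of all genes were by edgeR, and 1 of the 45 (*Dut*) was higher at an unadjusted p under 0.05. Both miR-128OE libraries lay below both Ctrl libraries for 32 of the 45, against 34.4% of all genes, and above both for 3 (*Gins4*, *Pcna* and *Dut*), against 33.7% of all genes. The groups overlapped for the remaining 10. The median log2 fold change was -0.39, against -0.01 for all genes tested, and the values ran from -0.999 for *Mcm6* to 0.21 for *Dut*. Of the 21 lower genes, 13 fell by at least 1.5-fold.

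**Figure D1:**
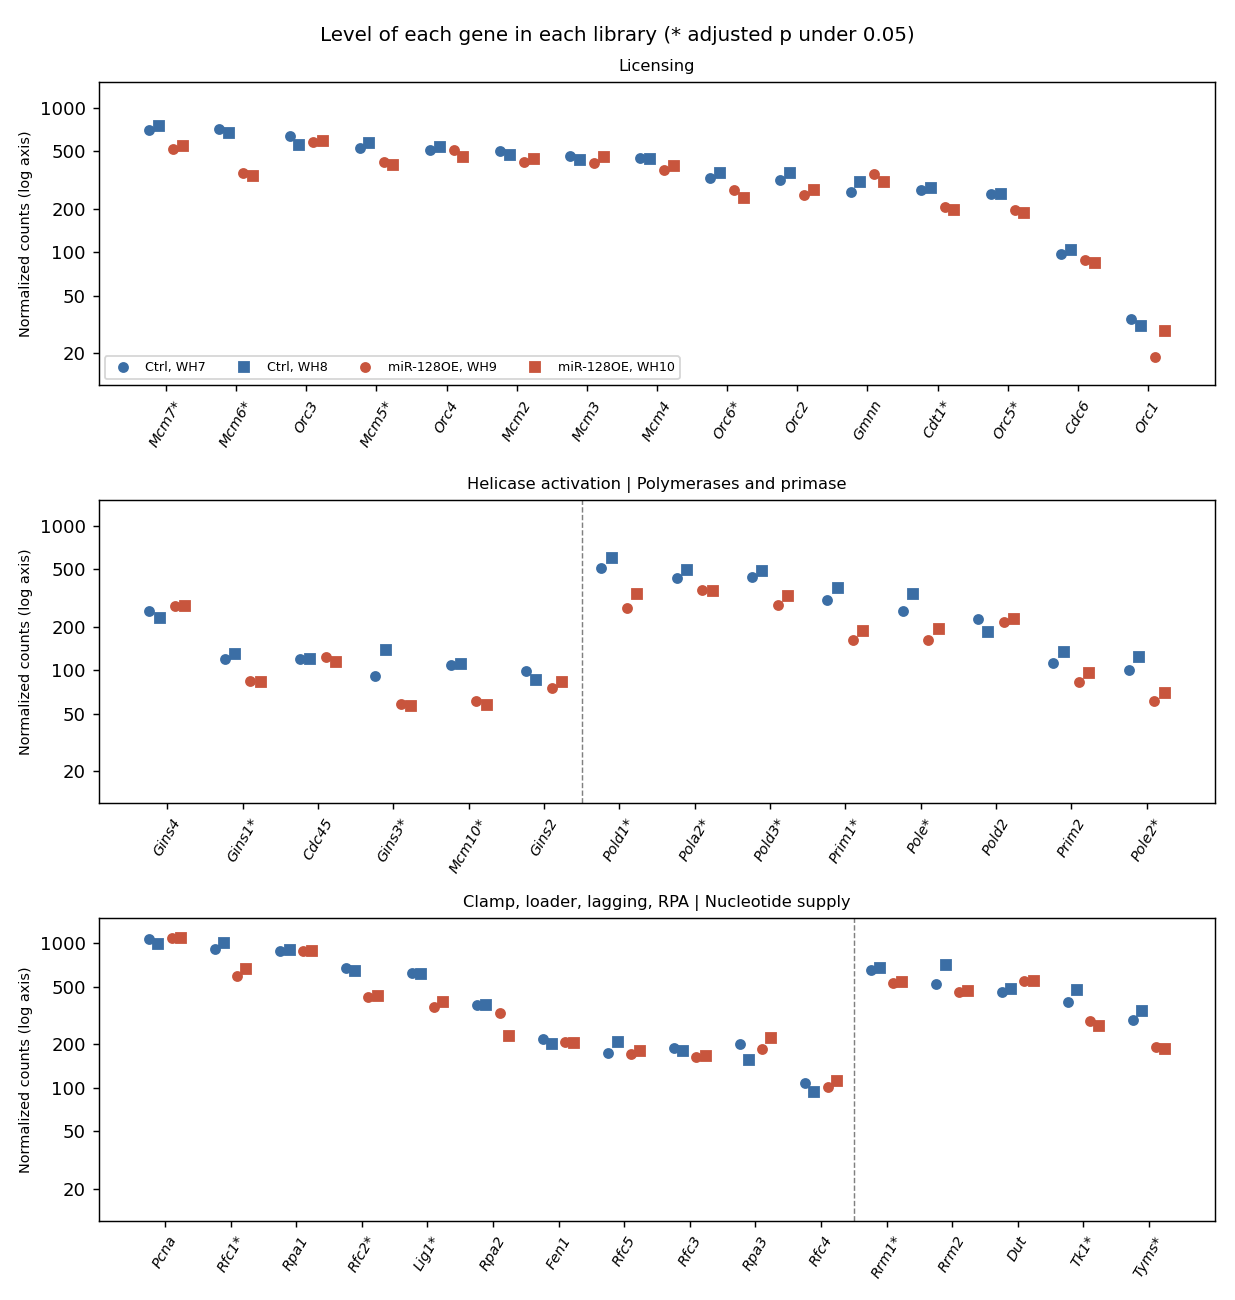
Normalized counts (vertical log axis) of each of the 45 genes in the 4 libraries, in panels by replication step, with Ctrl in blue and miR-128OE in red. Each point is 1 library, and an asterisk marks the 21 genes with an adjusted p under 0.05. For *Mcm6* the Ctrl points sit at 709 and 669 and the miR-128OE points at 351 and 339, while the 4 points of *Pcna* lie together between 988 and 1093.

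The count depended on each miR-128OE library, as did the count of lower genes over all genes tested. Both fell when WH9 or WH10 was left out, with the lone library of a group assumed to vary like the others. All 21 genes kept their negative sign with each library left out in turn. *Mcm6*, *Prim1*, *Pold1*, *Rfc1*, *Rfc2*, *Lig1* and *Tyms* stayed past the threshold in all 16 other fits that used it. In GRCm38 they lie at chr1:128331575-128359705, chr10:128015215-128030030, chr7:44532744-44548815, chr5:65261852-65338617, chr5:134582690-134598328, chr7:13277175-13311426 and chr5:30038546-30073645 in that order. In a bulk heart sample, fewer dividing cells and less RNA per cell cannot be told apart.

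Among the 15 licensing genes, 6 were lower (median log2 fold change -0.36), and they spanned ORC, the loader CDT1 and the MCM ring. The 15 summed to 514 and 518 CPM (counts scaled to library size) in Ctrl and 423 and 419 in miR-128OE hearts. *Mcm6*, a subunit of the ring, had 709 and 669 normalized counts in Ctrl and 351 and 339 in miR-128OE hearts, which is a log2 fold change of -0.999 (SE 0.096, adjusted p = 0.00015). It fell by 49.95%, more than any other of the 45 genes, and both miR-128OE libraries were at the bottom. Of 7 other tested genes within 500 kb of *Mcm6*, a window chosen after the values were seen, 4 were also lower, beside 15.0% of all genes tested. *Mcm7*, another subunit, had 699 and 748 normalized counts in Ctrl and 522 and 544 in miR-128OE hearts, giving a log2 fold change of -0.44 (SE 0.09, adjusted p = 0.00638). Its transcription unit also holds the *Mir25* and *Mir93* hairpins, on the same strand. *Mcm5* had 529 and 574 normalized counts in Ctrl and 419.8 and 402 in miR-128OE hearts at a log2 fold change of -0.42 (SE 0.10, adjusted p = 0.0114). For these subunits the gap between groups was wider than the gap within either.

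The other ring subunits did not pass the test. *Mcm4* had 451 and 439.6 normalized counts in Ctrl and 371 and 394 in miR-128OE hearts, with a log2 fold change of -0.22 (adjusted p = 0.135), and the groups did not overlap. *Mcm2* had 498 and 468 normalized counts in Ctrl and 421 and 442 in miR-128OE hearts, with a log2 fold change of -0.16 (adjusted p = 0.239). *Mcm3* had 465 and 435 normalized counts in Ctrl and 418 and 459 in miR-128OE hearts, so its groups overlapped, with a log2 fold change of -0.04 (adjusted p = 0.809). The 6 subunits assemble in equal number, and their transcripts can be set side by side per length as FPKM (counts scaled to library size and to the length of the longest coding transcript). *Mcm6* made up 16.6% and 15.7% of the 6 genes' summed FPKM in Ctrl and 10.8% and 10.1% in miR-128OE hearts. *Mcm3* went from 15.6% and 14.6% to 18.45% and 19.6%, and *Mcm2* from 15.1% and 14.2% to 16.7% and 17.0%. *Mcm7* held the largest share in each library, from 23.6% to 25.7%.

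**Figure D2:**
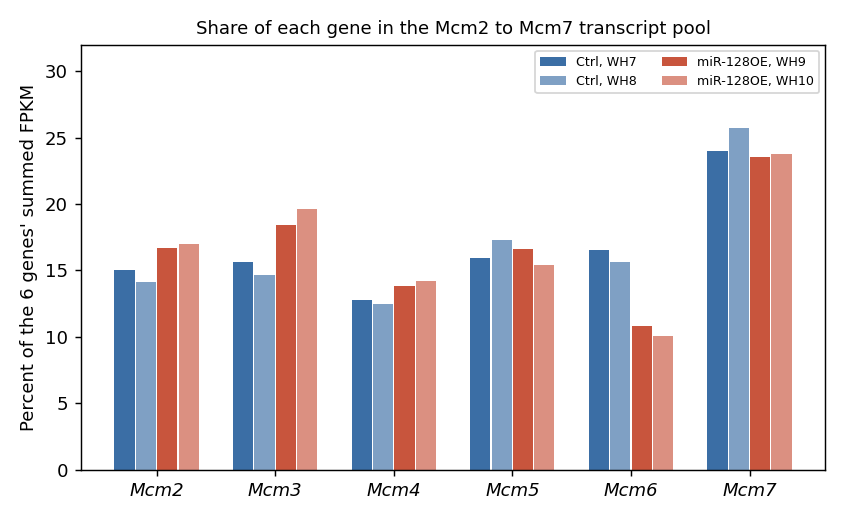
Share of each of *Mcm2* to *Mcm7* in the summed FPKM of the 6 genes (vertical axis, percent, starting at 0), 1 bar per library, with Ctrl in blue shades and miR-128OE in red shades. The *Mcm6* bars drop from 16.6% and 15.7% to 10.8% and 10.1%, and those of *Mcm3* stand higher in both miR-128OE libraries.

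*Cdt1*, which brings the ring to the origin, had 272 and 279.8 normalized counts in Ctrl and 205 and 196 in miR-128OE hearts, which is a log2 fold change of -0.46 (SE 0.12, adjusted p = 0.0204). Its inhibitor geminin, *Gmnn*, had 263 and 308 normalized counts in Ctrl and 346 and 304 in miR-128OE hearts, with overlap between the groups and a log2 fold change of 0.19 (adjusted p = 0.291). *Cdc6*, the ATPase that loads with CDT1, had 96.9 and 105 normalized counts in Ctrl and 89.1 and 84.1 in miR-128OE hearts, with a log2 fold change of -0.21 (adjusted p = 0.425). Loader and inhibitor thus had opposite signs, of which only that of *Cdt1* passed the test.

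The 6 ORC genes all had negative log2 fold changes, although that of *Orc3* turned without WH7 and with the offset for GC content and length, and 2 were lower. *Orc6*, the smallest subunit, had 326 and 353 normalized counts in Ctrl and 271 and 239 in miR-128OE hearts, giving a log2 fold change of -0.41 (SE 0.12, adjusted p = 0.0306). *Orc5* had 252 and 252 normalized counts in Ctrl and 195 and 187 in miR-128OE hearts at a log2 fold change of -0.40 (SE 0.13, adjusted p = 0.0381). They changed by -24.9% and -24.3%, with no overlap between the groups. *Orc2*, with 317 and 353 normalized counts in Ctrl and 249.5 and 272 in miR-128OE hearts, lay just outside the threshold, at a log2 fold change of -0.36 (SE 0.12, adjusted p = 0.0501). *Orc1*, the least abundant of the 45 per length, had 34.8 and 31.1 normalized counts in Ctrl and 18.8 and 28.6 in miR-128OE hearts (log2 fold change -0.47, adjusted p = 0.333). *Orc3* and *Orc4* overlapped between the groups, with log2 fold changes of -0.02 (adjusted p = 0.88) and -0.10 (adjusted p = 0.475). Without WH9, and without WH10, *Mcm6* was the 1 licensing gene past the threshold, and the largest adjusted p of the other 5 was then 0.251, for *Orc6*. Without WH8 *Orc6* was also just outside (adjusted p = 0.057), and without WH7 *Orc5* was (adjusted p = 0.0605) while *Orc2* passed (adjusted p = 0.0242). Under DESeq2 *Orc5*, *Orc6* and *Cdt1* lost the call as well (adjusted p = 0.166, 0.106 and 0.0892). Against a 1.2-fold change (glmTreat), *Orc5*, *Orc6*, *Cdt1*, *Mcm5* and *Mcm7* lost the call. *Orc6* shares 171 bases of exon with *Vps35* on the other strand and *Orc2* shares 1150 with *Nif3l1*, and the strand rule of the counting was not given in the sources used here.

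Of the 6 genes that turn the loaded ring into a moving helicase, 3 were lower (median -0.40). They are expressed at a low level, from 56.4 to 278 normalized counts. *Mcm10*, which is needed to start unwinding, had 108 and 110.2 normalized counts in Ctrl and 61.4 and 57.2 in miR-128OE hearts, which is a log2 fold change of -0.88 (SE 0.20, adjusted p = 0.0105). *Gins3* had 91.4 and 137 normalized counts in Ctrl and 58.4 and 56.4 in miR-128OE hearts, giving a log2 fold change of -0.97 (SE 0.25, adjusted p = 0.0159). The Ctrl libraries of *Gins3* differed from each other by more than those of any other lower gene, yet both stood above the miR-128OE pair. *Gins1* had 119.8 and 129 normalized counts in Ctrl and 84.2 and 82.4 in miR-128OE hearts at a log2 fold change of -0.57 (SE 0.18, adjusted p = 0.0391). All 3 lost the call without WH9 and without WH10, with adjusted p-values up to 0.182 (*Gins1*), and *Gins1* and *Gins3* also lost it without WH8 (0.0784 and 0.0549). Under DESeq2 *Gins1* lost it too (adjusted p = 0.151), as it did against a 1.2-fold change (glmTreat).

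The 4 GINS proteins form 1 complex, but only 2 of their genes passed the test. *Gins4* had 258 and 230.4 normalized counts in Ctrl and 278 and 277 in miR-128OE hearts, the higher values being in miR-128OE hearts, with a log2 fold change of 0.18 (adjusted p = 0.302). *Gins2* had 98.8 and 84.8 normalized counts in Ctrl and 75.2 and 82.4 in miR-128OE hearts (log2 fold change -0.23, adjusted p = 0.431). *Gins2* overlaps *Gse1* on the other strand over 2758 bases of exon. *Cdc45*, the helicase's partner, had 119.8 and 119 normalized counts in Ctrl and 123 and 114 in miR-128OE hearts (log2 fold change -0.02, adjusted p = 0.954). A difference in response between these subunits was not tested.

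Among the steps of the 45 genes, the polymerase genes held the largest share of lower genes, with 6 of 8 and a median log2 fold change of -0.66. They summed to 203 and 231 CPM in Ctrl and 135 and 152 in miR-128OE hearts. *Prim1*, the catalytic subunit of primase, had 305 and 370.3 normalized counts in Ctrl and 160.4 and 188 in miR-128OE hearts, which is a log2 fold change of -0.94 (SE 0.15, adjusted p = 0.00153). *Pold1*, the catalytic subunit of polymerase δ, had 512 and 595 normalized counts in Ctrl and 268 and 337 in miR-128OE hearts, giving a log2 fold change of -0.86 (SE 0.13, adjusted p = 0.00157). *Pole*, the catalytic subunit of polymerase ε, had 256 and 335 normalized counts in Ctrl and 161 and 193 in miR-128OE hearts at a log2 fold change of -0.72 (SE 0.16, adjusted p = 0.00977). These catalytic subunits thus changed by -48.0%, -44.9% and -39.4%. *Pole2*, the second subunit of polymerase ε, had 101 and 123 normalized counts in Ctrl and 61.4 and 69.0 in miR-128OE hearts, which is a log2 fold change of -0.76 (SE 0.21, adjusted p = 0.023). *Pold3*, an accessory subunit of polymerase δ, had 441 and 482 normalized counts in Ctrl and 282 and 324 in miR-128OE hearts, giving a log2 fold change of -0.60 (SE 0.12, adjusted p = 0.00469). *Pola2*, the B subunit of polymerase α, had 433 and 492 normalized counts in Ctrl and 356 and 354 in miR-128OE hearts at a log2 fold change of -0.38 (SE 0.11, adjusted p = 0.0274). In these 6 genes WH8 was the highest library and the groups did not overlap.

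*Prim2*, the large primase subunit, had 112 and 134 normalized counts in Ctrl and 82.2 and 95.9 in miR-128OE hearts. Its log2 fold change was -0.46 (adjusted p = 0.104), so the groups did not overlap but the test was not passed. *Pold2*, the small subunit of polymerase δ, overlapped, with 225 and 184 normalized counts in Ctrl and 217 and 227 in miR-128OE hearts and a log2 fold change of 0.11 (adjusted p = 0.601). *Prim1* and *Pold1* were lower in all 16 other fits. *Pold3* and *Pole* lost the call without WH9, and *Pola2* and *Pole2* without WH8, WH9 or WH10. *Pola2* and *Pole2* also lost it under DESeq2 and against a 1.2-fold change (glmTreat). *Pole2* shares 245 exon bases with *Gm49384* on the same strand. Polymerase subunits outside the 45 genes, named after their values were seen, were mixed. *Pola1* was lower (log2 fold change -0.70, adjusted p = 0.00262). *Pole3* (-0.06, adjusted p = 0.8), *Pole4* (0.23, adjusted p = 0.08) and the scarce *Pold4* (0.04, adjusted p = 0.957) did not pass the test.

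**Figure D3:**
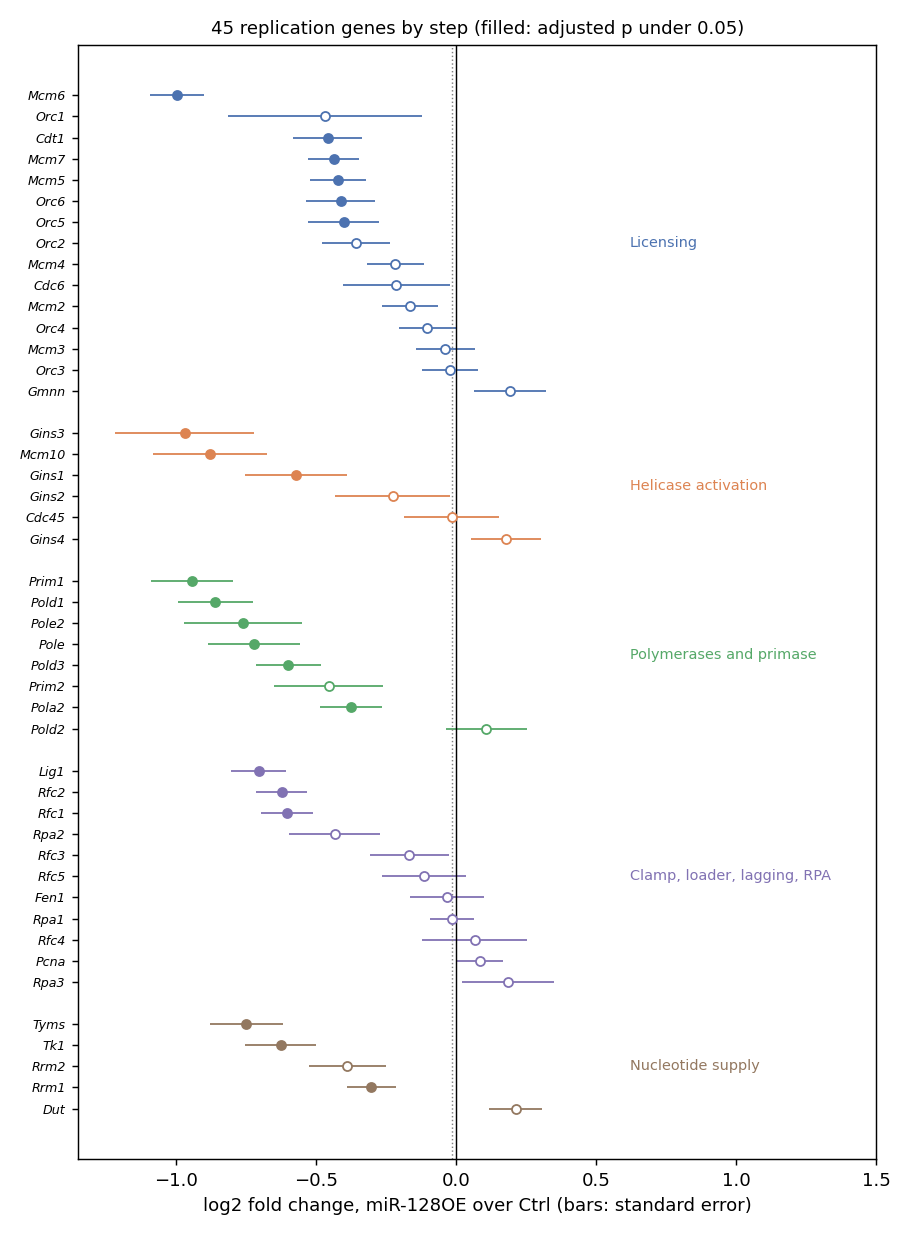
Log2 fold change of miR-128OE over Ctrl (horizontal axis) for the 45 genes, ordered within each step, with bars for the standard error, filled points for an adjusted p under 0.05 and a dotted line at the median of all genes tested (-0.01). Points run from -0.999 (*Mcm6*) to 0.21 (*Dut*), 21 are filled and all filled points lie left of 0.

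At the clamp, its loader and the lagging strand, 3 of 11 genes were lower and the median log2 fold change was -0.12. *Rfc1*, the large subunit of the clamp loader RFC, had 912 and 999 normalized counts in Ctrl and 594 and 659 in miR-128OE hearts, which is a log2 fold change of -0.60 (SE 0.094, adjusted p = 0.00152). *Rfc2*, a small subunit, had 672 and 647 normalized counts in Ctrl and 426 and 431 in miR-128OE hearts, giving a log2 fold change of -0.62 (SE 0.092, adjusted p = 0.0012). *Lig1*, the ligase that seals Okazaki fragments, had 626 and 612 normalized counts in Ctrl and 365 and 394 in miR-128OE hearts at a log2 fold change of -0.71 (SE 0.097, adjusted p = 0.000851). They changed by -34.2%, -35.1% and -38.7%, and each kept its call in all 16 other fits. *Rfc2* overlaps *Lat2* on the other strand over 952 bases of exon, and *Lig1* overlaps *Zswim9* over 247.

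The gene of the clamp itself did not pass the test. *Pcna*, the most abundant of the 45 per length at 57.5 FPKM in Ctrl, had 1066 and 988 normalized counts in Ctrl and 1090.1 and 1093 in miR-128OE hearts, with a log2 fold change of 0.09 (adjusted p = 0.456). Its annotation includes the pseudogenes *Pcna-ps1* and *Pcna-ps2*, whose reads the counting may have shared. *Rfc3*, *Rfc4* and *Rfc5*, the other small loader subunits, showed log2 fold changes of -0.17, 0.07 and -0.12 (adjusted p = 0.397, 0.819 and 0.59). *Fen1*, the flap nuclease, had 219 and 201 normalized counts in Ctrl and 209 and 204 in miR-128OE hearts and thus overlapped (log2 fold change -0.03, adjusted p = 0.875), with 1909 exon bases antisense to *Gm10143*.

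RPA coats single-stranded DNA as a trimer, and its 3 genes had adjusted p-values of 0.069 or more. *Rpa1*, the large subunit, was the most even of the 45, with 889 and 893 normalized counts in Ctrl and 881 and 881 in miR-128OE hearts (log2 fold change -0.02, adjusted p = 0.901). *Rpa2* had 373 and 376 normalized counts in Ctrl and 329 and 228 in miR-128OE hearts, so that WH10 alone stood far down, and its log2 fold change was -0.43 (adjusted p = 0.0692). Without WH9 it passed the threshold (log2 fold change -0.70, adjusted p = 0.0288), and without WH10 the log2 fold change was -0.17 (adjusted p = 0.504). *Rpa3*, the smallest subunit, overlapped with 200.3 and 157 normalized counts in Ctrl and 187 and 222 in miR-128OE hearts (log2 fold change 0.18, adjusted p = 0.427).

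Of the 5 genes of nucleotide supply, 3 were lower (median -0.39). *Tyms*, which makes thymidylate from dUMP, had 296 and 342 normalized counts in Ctrl and 191 and 187 in miR-128OE hearts, which is a log2 fold change of -0.75 (SE 0.13, adjusted p = 0.00265). *Tk1*, the S phase thymidine kinase of the salvage route, had 390.5 and 472 normalized counts in Ctrl and 289 and 267 in miR-128OE hearts, giving a log2 fold change of -0.63 (SE 0.13, adjusted p = 0.00577). For both genes all Ctrl values exceeded all miR-128OE values. *Rrm1*, the large subunit of ribonucleotide reductase, had 656 and 669.9 normalized counts in Ctrl and 535 and 539 in miR-128OE hearts at a log2 fold change of -0.30 (SE 0.088, adjusted p = 0.0271). *Rrm2*, the S phase small subunit, had 520.3 and 711 normalized counts in Ctrl and 461 and 471 in miR-128OE hearts, with a wide Ctrl pair and a log2 fold change of -0.39 (SE 0.14, adjusted p = 0.0584). *Dut*, the dUTPase that yields dUMP, had a positive value, with 464 and 486 normalized counts in Ctrl and 549 and 550.1 in miR-128OE hearts and a log2 fold change of 0.21 (adjusted p = 0.115). *Tyms* held in all 16 other fits, although a pseudogene (*Tyms-ps*) is annotated. *Tk1* lost its call without WH10, and *Rrm1* lost its own without WH9 or WH10. *Rrm1* also lost it under DESeq2, with an offset for GC content and length, and against a 1.2-fold change (glmTreat). *Rrm2* passed the threshold without WH7, the lower of its Ctrl libraries being left out (log2 fold change -0.61, adjusted p = 0.000441).

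By step, the share of lower genes was thus 6 of 15 for licensing, 3 of 6 for helicase activation, 6 of 8 for polymerases, 3 of 11 for clamp and lagging strand and 3 of 5 for nucleotides, beside 15.0% of all genes. Every step held at least 1 gene with a positive log2 fold change (*Gmnn*, *Gins4*, *Pold2*, *Pcna*, *Rfc4*, *Rpa3* and *Dut*). None of the 7 passed the test, and the signs of *Pold2*, *Pcna* and *Rfc4* turned in at least 1 of the other fits. A difference between steps was not tested.

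The 45 genes were also set against transcript length, because a trend with length ran through all genes tested. The 21 lower genes had a median length of 3069 nt (1087 to 7163) and the 24 others one of 2246.5 nt (670 to 5077). Over all genes tested, the median log2 fold change was 0.15 for transcripts up to 1500 nt, 0.03 from there to 3000 nt, -0.03 to 5000 nt and -0.10 above that. In the same bins, 3 of 8, 7 of 17, 10 of 18 and 1 of 2 of the replication genes were lower, beside 6.06%, 11.9%, 16.2% and 22.2% of all genes. With each library's trend over GC content and length removed as an offset, 21 of the 45 were again lower, with *Rpa2* in and *Rrm1* out.

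**Figure D4:**
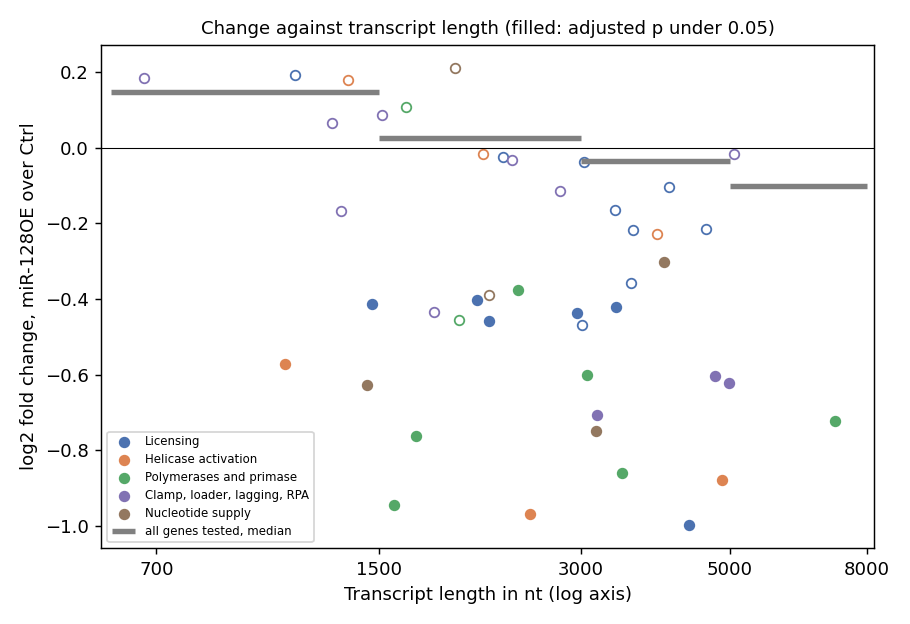
Log2 fold change of miR-128OE over Ctrl (vertical axis) against transcript length in nt (horizontal log axis) for the 45 genes, coloured by step and filled where the adjusted p was under 0.05. Grey bars give the median of all genes tested in 4 length bins, from 0.15 for the shortest to -0.10 for the longest, and the filled points lie below the bars.

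Further replication genes, 53 by a list of other fork, chromatin assembly and nucleotide factors, were mixed as well. Of these, 23 (43.4%) were lower, where 15.0% of all genes tested were, and 3 (5.66%) were higher, where 16.5% of all genes were. The median log2 fold change of the list was -0.35. Among those past the threshold, the 5 largest drops were in factors of the fork, the checkpoint and chromatin assembly. *Wdhd1*, which ties polymerase α to the helicase, had 281 and 336 normalized counts in Ctrl and 113 and 97.6 in miR-128OE hearts, which is a log2 fold change of -1.55 (SE 0.16, adjusted p = 0.000203). *Clspn*, the checkpoint mediator claspin, had 228 and 295 normalized counts in Ctrl and 125 and 153 in miR-128OE hearts, giving a log2 fold change of -0.89 (SE 0.17, adjusted p = 0.00469). *Chtf18* and *Atad5*, which belong to alternative clamp loading and unloading complexes, showed log2 fold changes of -0.87 (SE 0.19, adjusted p = 0.00738) and -0.76 (SE 0.18, adjusted p = 0.0106). *Chaf1a*, the large subunit of the chromatin assembly factor CAF-1, had 339 and 335 normalized counts in Ctrl and 200 and 208 in miR-128OE hearts at a log2 fold change of -0.73 (SE 0.12, adjusted p = 0.00194). In each of these genes both miR-128OE libraries stood below both Ctrl libraries. The 3 higher genes serve nucleotide supply. *Nme2*, a nucleoside diphosphate kinase, had 7375 and 7979.8 normalized counts in Ctrl and 11854 and 11054 in miR-128OE hearts, which is a log2 fold change of 0.58 (SE 0.09, adjusted p = 0.00154). *Rrm2b*, the reductase subunit used outside S phase, had 156 and 157 normalized counts in Ctrl and 216 and 207 in miR-128OE hearts, giving a log2 fold change of 0.43 (SE 0.14, adjusted p = 0.0393), while its S phase counterpart *Rrm2* showed a log2 fold change of -0.39. *Nme1* showed a log2 fold change of 0.28 (SE 0.08, adjusted p = 0.0277). With WH9 or WH10 left out, fewer genes of the list were called lower, and so were fewer of all genes tested.

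The mitotic genes, a list of 29, were lower in 19 (65.5%), beside 15.0% of all genes tested, with 1 positive log2 fold change and a median of -0.64. They summed to 1045 and 1422 CPM in Ctrl and 740.2 and 723 in miR-128OE hearts, so the Ctrl libraries were themselves apart. WH8 exceeded WH7 in 29 of the 29 mitotic genes (median log2 ratio 0.43) and in 27 of the 45 replication genes (median 0.04). Among the 21 lower replication genes it did so in 17 (median 0.12). *Mki67* and *Cenpf*, the most abundant by counts, showed log2 fold changes of -1.15 (SE 0.13, adjusted p = 0.000388) and -1.16 (SE 0.14, adjusted p = 0.000484). They are also the longest transcripts of the list (10061 and 11130 nt). The 10 mitotic genes not called include *Ube2c* and *Cdc20* (log2 fold change -0.04 and -0.16, adjusted p = 0.862 and 0.454), named after their values were seen. Per length these 2 stood above *Cenpf* in Ctrl (16.0 and 15.0 against 13.2 FPKM). The replication genes thus had a smaller median drop and closer Ctrl libraries than the mitotic genes, a difference that was not tested.

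**Figure D5:**
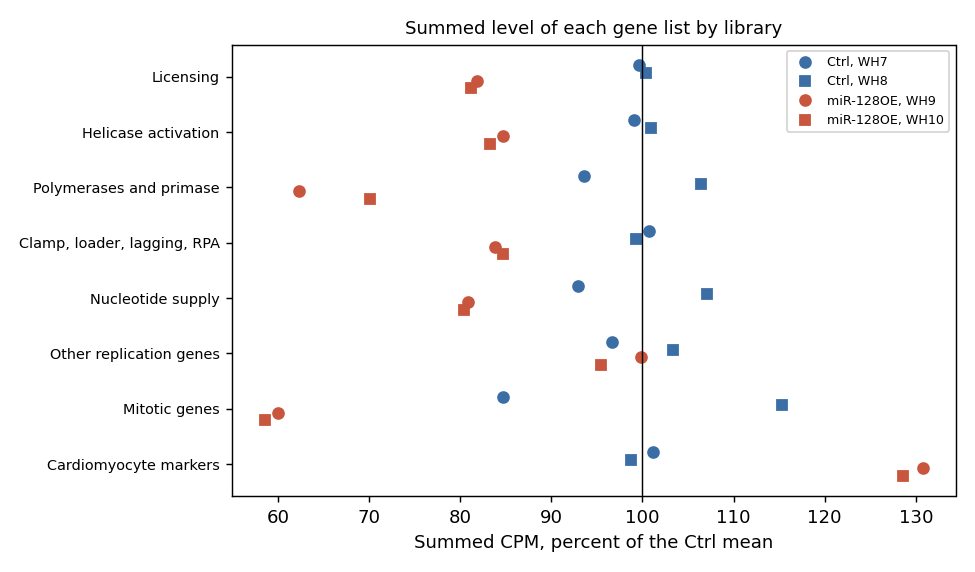
Summed CPM of each gene list as a percent of its Ctrl mean (horizontal axis), 1 point per library, with Ctrl in blue and miR-128OE in red. The other replication genes stand at 99.9% and 95.4% in miR-128OE hearts, a sum in which the higher *Nme2* has the most counts. The polymerase genes stand at 62.3% and 70.1% in miR-128OE hearts and the mitotic genes at 60% and 58.6%, with Ctrl mitotic points as far apart as 84.7% and 115%, while CM markers stand at 131% and 129%.

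Markers of heart cell types were counted as well, and over all genes tested 15.0% were lower and 16.5% higher. The 10 CM markers were all well detected and summed to 46394 and 45285 CPM in Ctrl and 59929 and 58957 in miR-128OE hearts. Among them 4 were higher (40%), 1 was lower (10%) and none stood at 0. Their most abundant genes, *Myh6* and *Myl2*, showed log2 fold changes of 0.33 (adjusted p = 0.0207) and 0.25 (adjusted p = 0.137). The 5 genes that follow are named after their values were seen. *Myh7* and *Actc1* were higher, at log2 fold changes of 1.55 (adjusted p = 0.000111) and 1.34 (adjusted p = 3.35e-05), and *Ryr2*, the calcium release channel, was the 1 lower (log2 fold change -0.40, adjusted p = 0.00655). The Ctrl libraries stood apart on the atrial genes. *Myl7* had 22943 and 3309 normalized counts in Ctrl and 10435 and 10316 in miR-128OE hearts (log2 fold change -0.34, adjusted p = 0.701). *Nppa* had 31104 and 2746 normalized counts in Ctrl and 5165 and 10838 in miR-128OE hearts (log2 fold change -1.08, adjusted p = 0.32). For both, WH7 was the highest and WH8 the lowest of the 4 libraries. The 7 mural markers summed to 1713 and 1641 CPM in Ctrl and 2197 and 2454 in miR-128OE hearts. Of them 2 were higher (28.6%), 1 was lower (14.3%) and 4 were not called. The most abundant, *Rgs5* and *Acta2*, were the higher ones, with log2 fold changes of 0.29 (adjusted p = 0.0264) and 0.94 (adjusted p = 0.00029). *Acta2* alone had 7382 and 6815 normalized counts in Ctrl and 12481 and 14753 in miR-128OE hearts. *Myh11*, named after its values were seen, was the lower one (log2 fold change -0.64, adjusted p = 0.0359). The 7 erythroid markers summed to 44.7 and 32.1 against 78.5 and 71.5 CPM, where *Alas2* on X showed a log2 fold change of 1.05 (adjusted p = 0.00106) and *Slc4a1* one of 0.21 (adjusted p = 0.521), while the 4 globin genes were listed at 0 in all 4 libraries. The 9 endothelial markers had 2 lower (22.2%) and 3 higher (33.3%) and summed to 2152 and 2109.8 against 2265 and 2191 CPM. The 8 fibroblast markers had 1 higher (12.5%) and summed to 9950.1 and 6465 against 8764 and 9497 CPM. The 9 macrophage markers summed to 142.9 and 105 against 116 and 118 CPM, with adjusted p-values of 0.386 or more. For the 3 of 6 lymphocyte markers that were tested (8.54 and 10.1 against 8.83 and 10.6 CPM over the list) and the 5 epicardial ones (187 and 124 against 158 and 144 CPM), these began at 0.369 and 0.0572. The part of these shifts in the replication result was not tested.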

How the data were processed

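RNA-seq counts of 4 P7 heart libraries were used. Per the study's methods, the authors filtered reads on quality, used TopHat2 for alignment to mm10 and deposited raw counts per gene, made with Bioconductor packages. Gene models, strand handling and the treatment of multi-mapping reads are not given in the sources used here. The deposited counts were tested with edgeR 4.0.16 in R 4.3.3 (filterByExpr with a minimum count of 10, TMM factors, quasi-likelihood test, two-sided, Benjamini-Hochberg adjustment over 14266 genes, threshold 0.05). Standard errors (SE) were obtained by dividing log2 fold changes by the square root of F. FPKM values were computed from these counts with the longest coding transcript of GENCODE M21. The script was tested on simulated data. Of 24454 Entrez identifiers, 24381 were matched to a symbol, and coordinates are those of RefSeq on GRCm38.p6, the same assembly as mm10. The 45 genes and all other lists were chosen with earlier results of these data known. All 45 are named, those past the threshold with every library's value, along with the 5 largest called changes in each direction among other replication genes and the 2 most abundant genes of marker lists that moved with the groups. The values of 1 marker list are not reported here. *Mir25*, *Mir93* and genes near *Mcm6* were added after their values were seen. Alternatives were the likelihood ratio and exact tests, DESeq2 1.42.0, limma 3.58.1 voom, other size factors and filters, glmTreat, autosomal genes alone, an offset for GC content and transcript length (loess, span 0.5) and each library left out. Python 3.11.15 was used for sequences. Floors of 3 counts cover counting error only, since PCR reads without molecular identifiers are not independent molecules.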

Additional observations from a re-analysis of the deposited data

How the results depend on the processing

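The count of lower replication genes, 21, was 24 by the likelihood ratio and exact tests, 14 by DESeq2, 21 by limma voom, 21 with autosomal genes alone and 21 with the offset for GC content and length. It was 12 with glmTreat against a 1.2-fold change, 11 at an adjusted p under 0.01, and 9 to 22 with a library left out. The count of higher replication genes was 0 under each of these settings. Among the other replication genes, 23 were lower, and 6 to 24 with a library left out. Of these genes 3 were higher, but 1 under DESeq2, upper-quartile factors or total counts, and 1 to 4 with a library left out. Total counts in place of TMM moved the median over all genes from -0.01 to -0.11 (log2), with 2948 genes lower and 1611 higher in place of 2143 and 2347, and gave 25 lower replication genes. DESeq2 called 1410 genes lower, and without WH9 or WH10 the fit called 667 or 1020. None of the 21 lower genes changed sign under any of these settings. No paired analysis was possible because the labels give no replicate numbers that the groups share. With 2 libraries per group and a prior of 7.44 degrees of freedom, a p that misses the threshold does not show that a gene was level.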

Other observations

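*Mcm6*, the replication gene with the largest drop, lies 129144 bases from *Mir128-1* on chromosome 1 of GRCm38, while the *miR-128* cassette of these mice was knocked in at Rosa26. The genes around it were looked at after its value was seen. Within 500 kb of *Mcm6* there were 7 other tested genes, of which 4 were lower, beside 15.0% of all genes tested. The smallest adjusted p of the other 3 was 0.106 (*Rab3gap1*, log2 fold change 0.27). *R3hdm1*, in whose span *Mir128-1* lies, was counted 1304 and 1083 times in Ctrl against 799 and 984 times in miR-128OE hearts (log2 fold change -0.74, SE 0.12, adjusted p = 0.00155). *Zranb3*, a fork remodelling enzyme, had 144 and 97 against 75 and 88 counts (log2 fold change -0.85, SE 0.18, adjusted p = 0.00726). *Dars* changed on the log2 scale by -0.39 (SE 0.089, adjusted p = 0.0103), and *Lct*, with 10 and 13 against 4 and 3 counts, by -1.99 (SE 0.64, adjusted p = 0.0411). In miR-128OE hearts *Lct* thus stood at or just above the floor of 3 counts. *Ubxn4*, which lies between *R3hdm1* and *Mcm6*, had 1933 and 1221 against 1759 and 2133 counts (log2 fold change 0.02, adjusted p = 0.886). *Cxcr4* showed a log2 fold change of -0.34 (adjusted p = 0.138). The lower genes are thus not an unbroken run, and a link between the position of *Mcm6* and its change was not tested.

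The hairpin genes themselves were hardly counted. *Mir128-1* was listed at 0 in all 4 libraries and *Mir128-2* at 0, 0, 2 and 10 counts, of which the last is above the floor of 3 counts and belongs to WH10. These libraries therefore give no usable level of *miR-128*.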
